A study of Homo sapiens with 12 samples.

Results

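Apolipoprotein E (APOE), its neighbour APOC1, 3 genes of the apolipoprotein L family (APOL1, APOL2 and APOL6), clusterin (CLU) and the receptors LRP1, VLDLR and LRP8 were followed in the RNA of PANC-1 cells, an established line of human pancreatic cancer. These 9 genes were picked by their symbols from the 23284 gene symbols listed for each library, and each was found once. The choice was made with measured values of these libraries in view, so their differences between the cell populations are given as descriptions, with no test, and of these 9 genes the effects of dose and time alone were tested. APOE was at 183 to 246 FPKM in the 6 degron (-) libraries and at 0.085 to 0.767 FPKM in the 6 degron (++) libraries, and APOC1 stood in the same order. CLU and LRP1 were also higher in degron (-) cells, whereas the APOL genes, VLDLR and LRP8 were higher in degron (++) cells.

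Apolipoproteins are the protein part of lipoprotein particles, which carry cholesterol, phospholipids and triglycerides in body fluids. APOE is the ligand by which many particles bind receptors of the LDL receptor family, and it is made mainly by hepatocytes, macrophages and astrocytes. The receptors take up the particles with their ligands, and VLDLR and LRP8 also pass on the signal of reelin, while the nuclear receptors LXR and the SREBP factors set the transcription of many genes of cholesterol efflux and uptake.

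Both populations carried a retroviral ZsGreen gene fused to the degron of ornithine decarboxylase, so that ZsGreen builds up where proteasome activity is low, and were grown under G418. By the study's methods, degron (-) was the whole infected line, where few cells were ZsGreen-positive, and degron (++) was the brightest part of a line enriched by repeated sorting and culture. Each population was sequenced at 0 Gy (48 h), at 4 Gy (30 h) and at 4 Gy (48 h), with 2 libraries in each of these 6 groups. The comparison was made in the study to look for genes behind the survival of degron (++) cells after irradiation. The libraries called degron (-) here are ZsGreen-negative by their titles but d+ by their descriptions. The study also made an enriched degron (+) line, and the labels do not settle whether these libraries came from it. The labels do not state the zero of the hours. Whether replicate libraries came from separate cultures is not stated either, so the p-values below measure the spread between these libraries, which may be technical. In these bulk samples, more expressing cells and more RNA in each cell cannot be told apart.

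The deposited unit was FPKM, the fragments of a gene scaled to its exon length and to all mapped fragments, so levels of different genes can be compared per length, but no counts are given and absolute depth is unknown. Relative depth, read from the steps between low values, ranged from 0.852 to 1.16. Tests were run with limma on log2(FPKM + 1) over the 12946 genes that reached 1 FPKM in 2 or more libraries, which included all 9 genes, and a fold change on this scale understates the change of a low gene. The closest library was of the same population for 12 of 12 libraries, and of the same group for 4. The FPKM summed to 829654 to 916877 in degron (++) and 707273 to 763064 in degron (-). Rescaling each library to the same sum moved the median log2 difference of all tested genes at 0 Gy (48 h) from -0.023 to -0.21, and the share of called genes that were higher in degron (++) from 48.3% to 35.9%. The gene MIR622 alone made up 28.6 to 30.0% of the FPKM sum in degron (++) and 22.5 to 27.1% in degron (-). With MIR622 left out of the sum, the rescaled median was -0.14 and the share 41.0%. Of 6 ductal and epithelial markers, all were above 1 FPKM in every library, with a sum of 7184 to 8369 FPKM in degron (++) and 4226 to 5137 FPKM in degron (-).

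APOE and APOC1 are adjacent on chromosome 19. The windows from 250 bases before to 50 bases after their starts are shown because these genes had the lowest levels in degron (++) libraries relative to degron (-). They were taken from the RefSeq promoter table of GRCh38.p14, whereas the submitters' processing notes name hg19 for the FPKM. The table held windows for 5 of the 9 genes, with 3 for APOE, of which the most upstream is printed. Capitals mark TATAA and GGGCGG, searched on both strands. Both windows are on the plus strand, APOE at chr19:44905546-44905845 and APOC1 at chr19:44914422-44914721.
APOE: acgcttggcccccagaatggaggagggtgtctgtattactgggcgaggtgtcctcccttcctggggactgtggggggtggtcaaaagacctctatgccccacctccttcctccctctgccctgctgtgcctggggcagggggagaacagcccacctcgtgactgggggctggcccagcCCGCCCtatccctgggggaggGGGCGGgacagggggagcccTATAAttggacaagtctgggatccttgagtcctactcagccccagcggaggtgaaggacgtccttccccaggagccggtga
APOC1: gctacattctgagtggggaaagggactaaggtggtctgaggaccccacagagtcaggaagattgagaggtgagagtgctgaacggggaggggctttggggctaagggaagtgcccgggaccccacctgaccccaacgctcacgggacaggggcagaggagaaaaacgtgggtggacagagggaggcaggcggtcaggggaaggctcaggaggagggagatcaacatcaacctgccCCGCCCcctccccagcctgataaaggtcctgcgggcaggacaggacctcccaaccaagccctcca

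In the APOE window the TATAA match began 31 bases before the start, and the 2 GGGCGG matches began 72 and 51 bases before it, the first on the minus strand. The APOC1 window held 1 GGGCGG match, on the minus strand and 15 bases before the start, and no TATAA. Of 35116 promoter windows of this length, 20.4% held TATAA and 45% held GGGCGG on either strand, and the motifs do not overlap in these windows. A match is a description of the letters and says nothing of binding in these cells.

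The ligands were led by APOE. Its level in degron (-) cells was 200 and 183 FPKM at 0 Gy (48 h), 246 and 236 FPKM at 4 Gy (30 h), and 226 and 205 FPKM at 4 Gy (48 h). In degron (++) cells the same groups had 0.260 and 0.085 FPKM, 0.595 and 0.260 FPKM, and 0.546 and 0.767 FPKM. The lowest degron (-) library was thus 239 times the highest degron (++) library, and no library of either population came near the other. The log2 difference of degron (++) minus degron (-) was -7.36 at 0 Gy (48 h), -7.42 at 4 Gy (30 h) and -7.03 at 4 Gy (48 h). By mean FPKM over 6 libraries, APOE ranked 374 of 23284 symbols in degron (-) and 12662 in degron (++).

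The low APOE values of degron (++) libraries fell on steps of a fixed size for each library, after scaling by relative depth. If the smallest value stands for 1 fragment, these libraries held 1 to 9 fragments of APOE, and the steps lay within 0.037 of whole numbers. The degron (-) libraries held 2075 to 3080 such steps. This reading was added after the values were seen and assumes that the smallest step is 1 fragment, which the files do not state. APOE was therefore detected in every degron (++) library, at a level where a few fragments decide the value.

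APOC1 encodes a small apolipoprotein that is exchanged between particles and inhibits cholesteryl ester transfer protein. Its level was 34.2 and 29.7 FPKM at 0 Gy (48 h) in degron (-) cells, 33.7 and 30.3 FPKM at 4 Gy (30 h), and 39.3 and 27.9 FPKM at 4 Gy (48 h). In degron (++) cells it was 0.334 and 0.325 FPKM, 0.381 and 0.665 FPKM, and 0.350 FPKM in 1 library of the last group and listed at 0 in the other. The lowest degron (-) library was 41.9 times the highest degron (++) library. The log2 differences were -4.63, -4.44 and -4.88 in the order of conditions above. The smallest nonzero APOC1 value after scaling by relative depth was taken as 1 step, a unit of its own for this gene. On that scale the degron (++) libraries held 0 to 2 steps of APOC1, and the degron (-) libraries 88 to 140.

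CLU, or apolipoprotein J, is a secreted chaperone that binds misfolded proteins outside the cell and is cleared through LDL receptor family members. CLU in degron (-) cells was at 52.3 and 54.6 FPKM at 0 Gy (48 h), 55.7 and 50.3 FPKM at 4 Gy (30 h), and 59.9 and 61.1 FPKM at 4 Gy (48 h). In degron (++) cells it was at 22.2 and 23.2 FPKM, 24.0 and 25.4 FPKM, and 27.3 and 28.1 FPKM. The populations did not overlap, but the gap was small beside that of APOE, with 1.79 times between the nearest libraries. The log2 differences were -1.20, -1.07 and -1.10.

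Of the receptors, LRP1 is a large endocytic receptor with many ligands besides APOE, such as proteases with their inhibitors. LRP1 was low throughout, at 1.21 to 1.53 FPKM with a median of 1.46 FPKM in degron (-) libraries and at 0.295 to 0.50 FPKM with a median of 0.370 FPKM in degron (++) libraries. The log2 differences were -0.59, -0.87 and -0.89. VLDLR, a receptor for reelin and for particles rich in triglycerides and APOE, was in the opposite order, at 0.953 to 1.57 FPKM in degron (++) and 0.382 to 0.689 FPKM in degron (-) libraries. Its log2 differences were 0.52, 0.78 and 0.41. Neither receptor reached 2 FPKM in any library, and in these genes the pseudocount of 1 is as large as the values.

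LRP8, also called APOER2, is the other reelin receptor and was the most highly expressed of these receptors per length. In degron (++) cells LRP8 was at 16.9 and 16.8 FPKM at 0 Gy (48 h), 13.5 and 13.5 FPKM at 4 Gy (30 h), and 13.0 and 14.2 FPKM at 4 Gy (48 h). Degron (-) cells had 11.1 and 12.3 FPKM, 10.9 and 10.6 FPKM, and 11.4 and 11.5 FPKM. The populations were barely separate, with 1.06 times between the nearest libraries. The log2 differences were 0.49 at 0 Gy (48 h), 0.31 at 4 Gy (30 h) and 0.23 at 4 Gy (48 h), and the last of these turned to -0.019 when each library was rescaled to the same sum. RELN, the gene of reelin, was listed at 0 in all 12 libraries.

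The APOL genes form a cluster on chromosome 22 and are known to be induced by interferon and inflammatory signals. APOL1 is the secreted member that kills trypanosomes, and APOL2 and APOL6 stay inside the cell. APOL1 was at 26.9 and 28.9 FPKM at 0 Gy (48 h) in degron (++) cells, 25.6 and 26.7 FPKM at 4 Gy (30 h), and 25.6 and 28.1 FPKM at 4 Gy (48 h). Degron (-) cells had 7.63 and 6.50 FPKM, 6.69 and 7.64 FPKM, and 10.3 and 10.6 FPKM. All degron (++) libraries were above all degron (-) libraries, and within degron (-) the libraries at 4 Gy (48 h) were above the other 4. The log2 differences of degron (++) minus degron (-) were 1.85, 1.73 and 1.28.

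APOL2 was at 24.6 to 27.8 FPKM in degron (++) and 14.8 to 18.6 FPKM in degron (-) libraries. The nearest libraries differed by 1.32 times, and the log2 differences were 0.72, 0.70 and 0.51. APOL6 was at 13.0 to 16.9 FPKM in degron (++) and 4.49 to 5.34 FPKM in degron (-) libraries. Here the nearest libraries differed by 2.43 times, and the log2 differences were 1.45, 1.61 and 1.18. The 3 APOL genes thus stood in the same order between the populations in each condition.

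**Figure D1:**
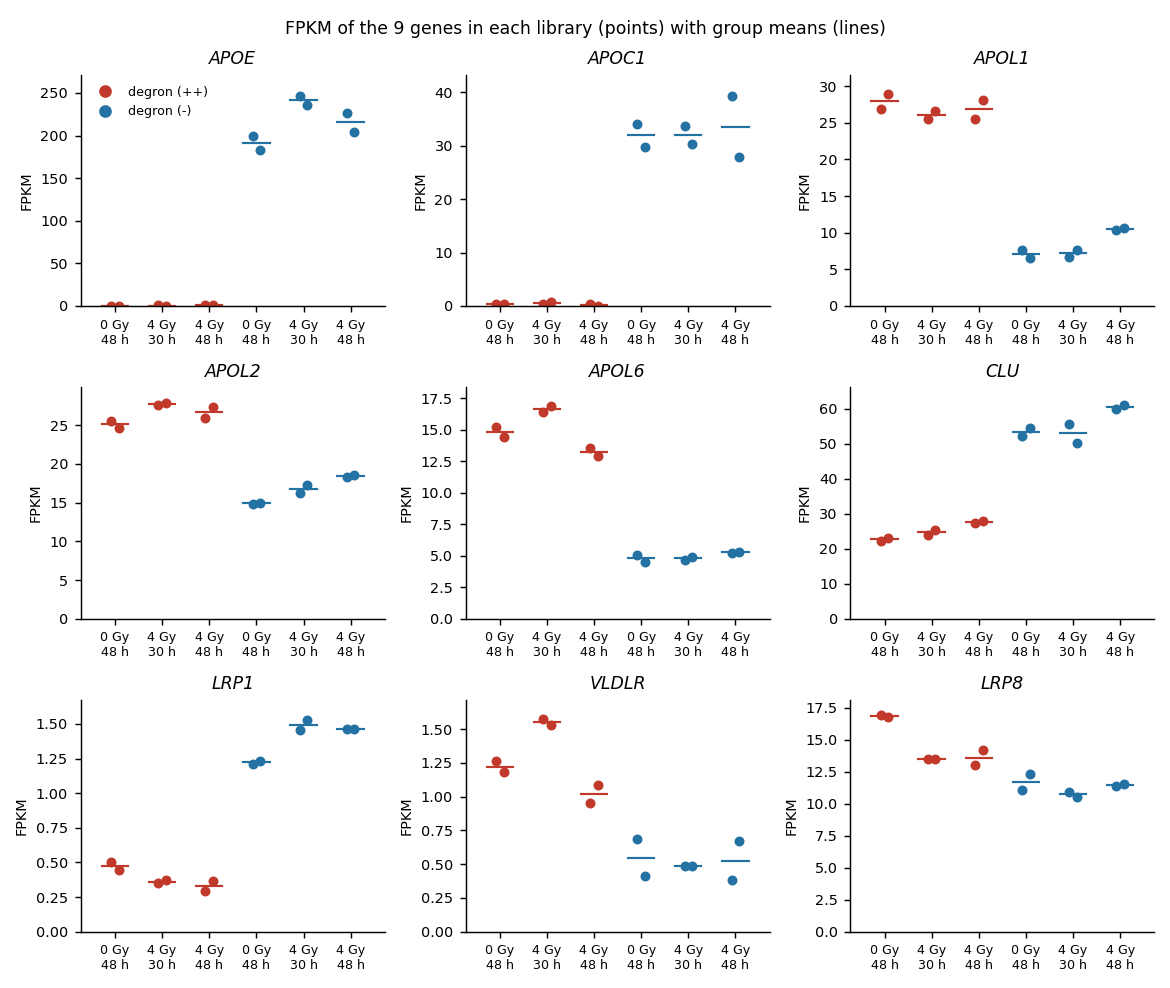
FPKM of each of the 9 genes (y axis, linear and starting at 0, with a scale of its own for each gene) in 6 groups (x axis, dose and time), with red for degron (++) and blue for degron (-). Points are libraries and lines are means of 2 libraries. APOE, APOC1, CLU and LRP1 lie higher in blue, and APOL1, APOL2, APOL6, VLDLR and LRP8 higher in red, with no overlap between the 6 libraries of each color.

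None of the 9 genes overlapped between the 6 degron (++) and 6 degron (-) libraries, 4 being higher in degron (-) and 5 in degron (++). This count is to be read against all genes tested, of which 71.3% did not overlap, 37.2% being higher in degron (-) and 34.1% in degron (++). The size of the difference was what set APOE and APOC1 apart among the 9. The order of mean levels per length also changed. In degron (-) cells it was APOE at 216 FPKM, CLU at 55.7, APOC1 at 32.5, APOL2 at 16.7, LRP8 at 11.3, APOL1 at 8.23, APOL6 at 4.95, LRP1 at 1.39 and VLDLR at 0.520 FPKM, where of neighbours in this order only LRP8 and APOL1 had overlapping libraries. In degron (++) cells APOL1 at 27.0, APOL2 at 26.5 and CLU at 25.0 FPKM overlapped at the top, APOL6 at 14.9 and LRP8 at 14.6 FPKM overlapped in the middle, and APOE at 0.419, LRP1 at 0.389 and APOC1 at 0.343 FPKM overlapped at the bottom, below VLDLR at 1.26 FPKM.

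The genes beside APOE and APOC1 were compared in the order in which RefSeq places them. BCAM, an adhesion molecule, had a mean of 58.7 FPKM in degron (++) and 24.7 FPKM in degron (-), opposite to APOE. PVRL2, a cell adhesion nectin, had means of 52.8 and 57.8 FPKM, and at 0 Gy (48 h) its log2 difference of -0.082 did not pass the test (adjusted p = 0.193, limma with Benjamini-Hochberg adjustment). TOMM40, a pore of the mitochondrial import machinery that lies next to APOE, had means of 105 and 89.8 FPKM, and its small rise at 0 Gy (48 h) (log2 difference 0.098, limma adjusted p = 0.0226) turned to -0.11 and -0.020 under the 2 rescalings to an equal sum. On the other side of APOC1, APOC4, the readthrough gene APOC4-APOC2 and APOC2 had means of at most 0.0337 FPKM in both populations, and CLPTM1, a membrane protein gene, had means of 62.3 and 49.1 FPKM. Among the genes here with a mean above 1 FPKM in either population, APOE and APOC1 were the ones with a mean in degron (-) many times that in degron (++). Below that level, APOC1P1, a pseudogene copy of APOC1, had a mean of 0.0975 FPKM in degron (-) and was listed at 0 in all degron (++) libraries.

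Further out on 19q13.32, CBLC, a ubiquitin ligase of epithelia, was higher in degron (++) at 0 Gy (48 h) by 2.08 on the log2 scale and RELB, an NF-kappaB subunit, lower with -0.67 (limma adjusted p = 5.7e-07 and 3.7e-05). BCL3, another NF-kappaB regulator, had a log2 difference of -0.011 and did not pass (limma adjusted p = 0.889). At 4 Gy (30 h) BCL3 was lower with -0.54 (limma adjusted p = 8.3e-05), and at 4 Gy (48 h) it had 0.15 (limma adjusted p = 0.0867). From 30 h to 48 h it rose by 0.50 in degron (++) (limma adjusted p = 0.0193). This rise was lost when each library was rescaled to the same sum. The time effect differed from that in degron (-) by 0.68 (limma interaction test, adjusted p = 0.0139). Of 7 tested genes in this neighbourhood, 4 were higher and 1 was lower in degron (++) at 0 Gy (48 h), beside 77.7% of all tested genes called, with a median log2 difference of 0.098 beside -0.023. At 4 Gy (30 h) the same list had 4 higher and 3 lower with a median of 0.26, beside 79.1% of all tested genes, and at 4 Gy (48 h) 4 higher and 1 lower with a median of 0.30, beside 76.7%.

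On 22q12, APOL3, APOL4, APOL2 and APOL1 follow each other between RBFOX2 and MYH9. APOL3 was at 13.5 to 16.2 FPKM in degron (++) and 2.17 to 3.46 FPKM in degron (-) libraries, with a log2 difference of 2.03 at 0 Gy (48 h). APOL4 was listed at 0 in all degron (++) libraries and reached 0.028 FPKM in degron (-), and APOL5 was listed at 0 throughout. The flanking genes differed less. RBFOX2, a splicing factor, and MYH9, a non-muscle myosin, were lower in degron (++) with log2 differences of -0.25 and -0.46, and TXN2, FOXRED2 and EIF3D were higher with 0.35, 0.22 and 0.63 (limma adjusted p of at most 0.0037 for each). The calls for TXN2 and FOXRED2 were lost when each library was rescaled to the same sum.

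**Figure D2:**
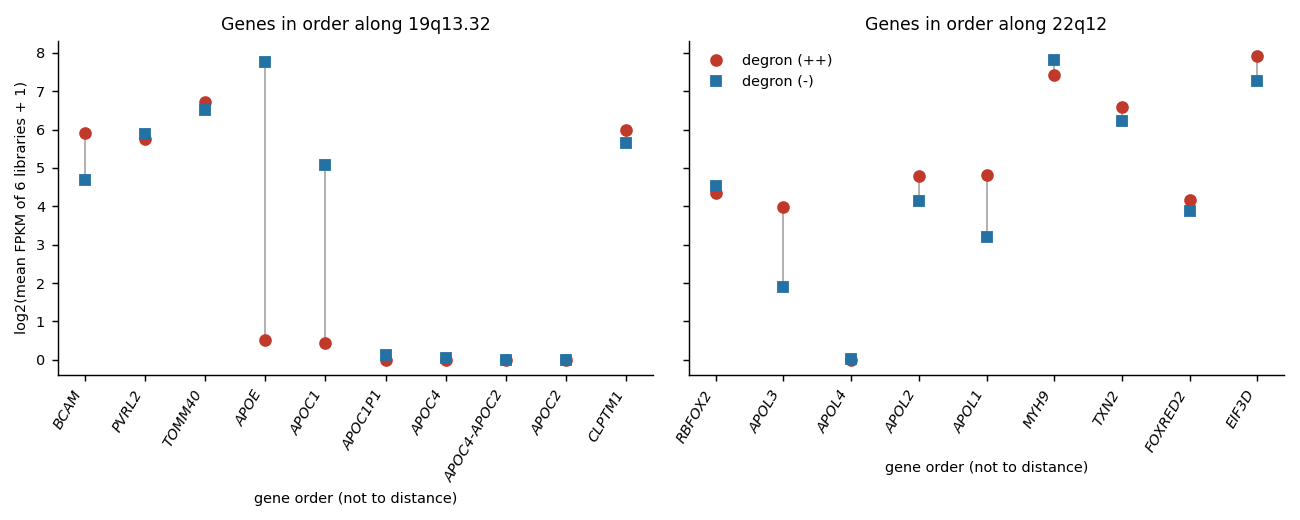
Mean level over 6 libraries as log2(mean FPKM + 1) (y axis) of genes in RefSeq order (x axis, not to distance) on 19q13.32 (left) and 22q12 (right), with red circles for degron (++), blue squares for degron (-) and gray lines joining them. APOE and APOC1 stand out with means of 216 and 32.5 FPKM in degron (-) and 0.419 and 0.343 FPKM in degron (++), the widest gaps among the genes drawn, while BCAM lies the other way with 24.7 FPKM in degron (-) and 58.7 FPKM in degron (++).

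Dose was examined at 48 h, where 4 Gy was set against 0 Gy within each population. In degron (++) cells CLU rose by 0.27 ± 0.054 on the log2 scale (± SE, limma adjusted p = 0.0469) and LRP8 fell by 0.29 ± 0.059 (limma adjusted p = 0.0491). These were 2 of 9 genes, beside 1.82% of all tested genes. Both libraries at 4 Gy were above both at 0 Gy for CLU and below both for LRP8, but the calls lay at the threshold. CLU passed under 2 of 13 alternatives and LRP8 under 1 of 13, and both calls were lost whichever of the 4 libraries was left out, with limma adjusted p of 0.119 to 0.241 for CLU and 0.0988 to 0.223 for LRP8.

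APOE in degron (++) cells was higher at 4 Gy than at 0 Gy by 0.50 ± 0.12 on the log2 scale, without passing the threshold (limma adjusted p = 0.0868). Its mean was 0.172 FPKM ± 0.124 (SD, n = 2) at 0 Gy and 0.656 FPKM ± 0.156 at 4 Gy, which rests on 1 to 9 steps a library. In degron (-) cells the log2 difference of APOE was 0.17 ± 0.12 (limma adjusted p = 0.484), with means of 192 FPKM ± 11.7 and 215 FPKM ± 15.5. The other members that did not pass in degron (++) cells had log2 differences from -0.19 for APOC1 to 0.081 for APOL2.

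In degron (-) cells 2 of 9 genes passed at 4 Gy, beside 4.73% of all tested genes, and both were APOL genes. APOL1 rose by 0.51 ± 0.084 on the log2 scale (limma adjusted p = 0.0143), from a mean of 7.06 FPKM ± 0.801 to 10.5 FPKM ± 0.201. APOL2 rose by 0.29 ± 0.044 (limma adjusted p = 0.0097), from 14.9 FPKM ± 0.0870 to 18.4 FPKM ± 0.227. The remaining 7 genes had log2 differences from -0.024 for LRP8 to 0.18 for CLU and limma adjusted p of at least 0.106. The call of APOL1 was lost without either library at 4 Gy (limma adjusted p = 0.0520 and 0.0972) and without replicate 2 at 0 Gy (0.0808), and that of APOL2 without replicate 2 of either dose (0.0766 at 4 Gy and 0.0550 at 0 Gy).

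The time after 4 Gy gave a similar list in degron (-) cells. From 30 h to 48 h APOL1 rose by 0.49 ± 0.084 on the log2 scale (limma adjusted p = 0.0110), from 7.16 FPKM ± 0.672 to 10.5 FPKM ± 0.201, and was the only 1 of 9 genes past the threshold, beside 7.18% of all tested genes. The groups at 0 Gy and at 30 h are compared with the same libraries at 4 Gy (48 h), so the rises of APOL1 with dose and with time are not independent. APOL2 had a log2 difference of 0.13 ± 0.044 (limma adjusted p = 0.113) and CLU of 0.19 ± 0.054 (limma adjusted p = 0.0760). The APOL1 call was lost without replicate 1 at 30 h (limma adjusted p = 0.0806) and without replicate 2 at 48 h (0.0871).

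Some epithelial markers moved with APOL1 in degron (-) cells. CDH1, or E-cadherin, was at 8.36 and 7.69 FPKM at 0 Gy (48 h), 6.56 and 6.79 FPKM at 4 Gy (30 h), and 11.7 and 12.8 FPKM at 4 Gy (48 h). These libraries were also the highest of degron (-) for KRT7, at 233 and 273 FPKM, and for EPCAM, at 44.8 and 52.8 FPKM. With dose KRT7, EPCAM and CDH1 rose by 0.44, 0.37 and 0.56 on the log2 scale (limma adjusted p = 0.0326, 0.0200 and 0.0015), and with time by 0.86, 0.64 and 0.79 (limma adjusted p = 0.0012, 0.0011 and 0.00018). These were 3 of 6 markers in each comparison, beside 4.73% of all tested genes for dose and 7.18% for time. The dose calls of KRT7, EPCAM and CDH1 were lost in a fit on only the libraries compared. The other 3 of the 6 markers, KRT8, KRT18 and KRT19, passed in neither comparison, with 0.18, 0.13 and -0.017 for dose and 0.24, 0.20 and 0.12 for time (limma adjusted p of at least 0.0601 for each). In degron (++) cells, where APOL1 was higher, the same markers were higher too, KRT7 at 1142 to 1437 FPKM, EPCAM at 176 to 205 FPKM and CDH1 at 62.8 to 66.6 FPKM. Their part in the APOL1 and APOL2 results was not tested.

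In degron (++) cells 3 of 9 genes had an unadjusted limma p under 0.05 between 30 h and 48 h, beside 2050 of all 12946 tested genes. After adjustment 0 of 9 genes passed, beside 1.21% of all tested genes. The nearest was APOL6, at 16.4 and 16.9 FPKM at 30 h and 13.5 and 13.0 FPKM at 48 h, with a log2 difference of -0.31 ± 0.061 (limma adjusted p = 0.0563). VLDLR had -0.34 ± 0.12 (limma adjusted p = 0.209), from 1.57 and 1.53 FPKM to 0.953 and 1.09 FPKM. For both genes the libraries at the 2 times did not overlap.

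Whether the populations differed in these effects was tested by interaction terms, written as degron (++) minus degron (-). For time after 4 Gy, 1 of 9 genes passed, beside 3.23% of all tested genes. This was APOL6, with -0.42 ± 0.087 on the log2 scale (limma adjusted p = 0.0394), where degron (++) libraries were lower at 48 h than at 30 h and degron (-) libraries, at 4.70 and 4.88 FPKM at 30 h, were at 5.20 and 5.34 FPKM at 48 h. The call passed under 4 of 17 alternatives and was lost whichever of the 8 libraries was left out, with limma adjusted p of 0.0742 to 0.133. APOL1 had -0.45 ± 0.12 (limma adjusted p = 0.0889).

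For dose at 48 h, 0 of 9 genes passed the limma interaction test, beside 0.0772% of all tested genes. An unadjusted limma p under 0.05 was found for 5 of 9 genes, beside 1758 of all 12946 tested genes. APOL1 had -0.57 ± 0.12 (limma adjusted p = 0.129), and APOE had 0.33 ± 0.17 (limma adjusted p = 0.437). In this fit the rise of APOL1 with dose in degron (-) cells was thus not shown to differ from its change in degron (++) cells. There its log2 difference was -0.056 ± 0.084. The APOL1 interaction passed under 1 alternative, rescaling to the same sum without MIR622 (-0.67, limma adjusted p = 0.0415).

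**Figure D3:**
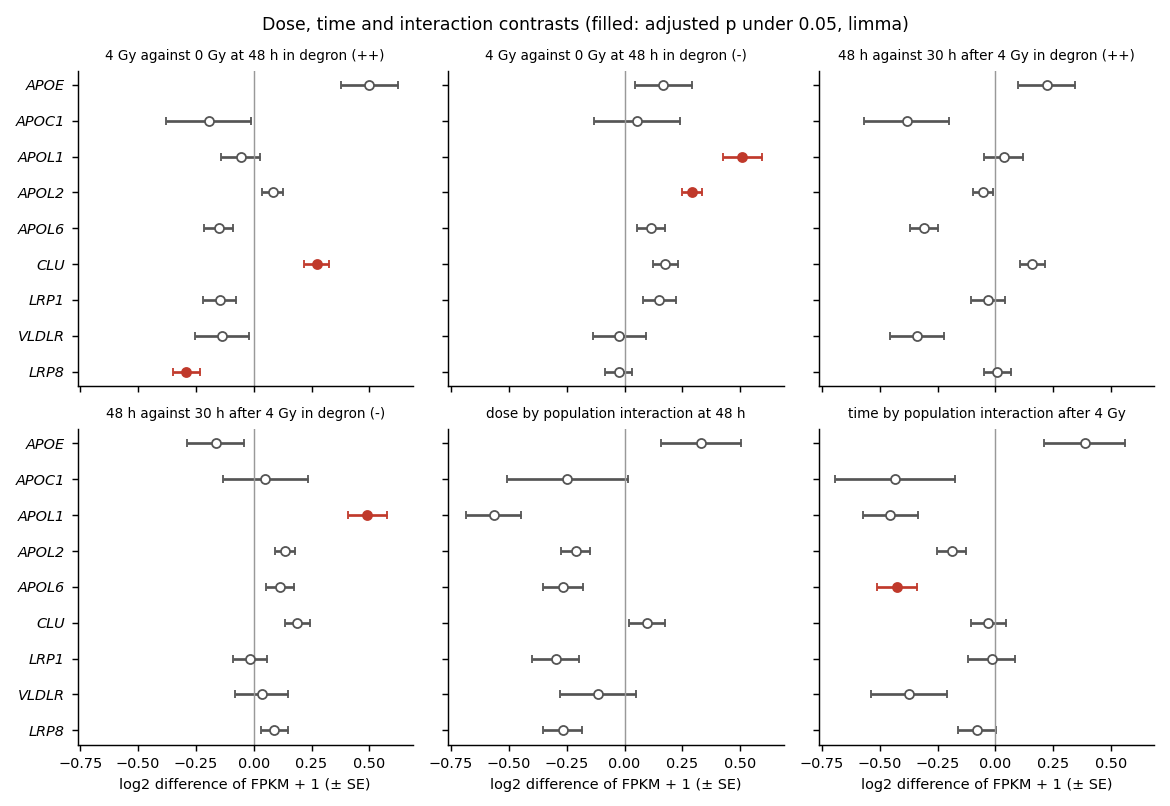
Log2 difference of FPKM + 1 (x axis, bars are SE) of the 9 genes (y axis) for 4 Gy against 0 Gy, for 48 h against 30 h and for the interactions of each with population, from limma over 12 libraries. Red filled points have a Benjamini-Hochberg adjusted p under 0.05, namely CLU (0.27) and LRP8 (-0.29) with dose in degron (++), APOL1 (0.51) and APOL2 (0.29) with dose in degron (-), APOL1 with time in degron (-) (0.49) and APOL6 in the time interaction (-0.42).

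The rest of the pathway was described by lists of genes that are not among the 9. Over 6 lists of apolipoproteins, receptors, their partners and ligands, lipid handling and transcription factors, 54 of 88 genes could be tested. At 0 Gy (48 h), 25 were higher and 25 lower in degron (++), which is 92.6% beside 77.7% of all tested genes, with a median log2 difference of -0.024 beside -0.023. At 4 Gy (30 h) 22 were higher and 27 lower, with a median of -0.090 beside -0.021, and at 4 Gy (48 h) 21 were higher and 27 lower, with a median of -0.13 beside -0.0091. Genes of these lists named below are given with no p for this difference, since some were picked for its size, and the differences are those at 0 Gy (48 h).

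Among 23 other apolipoprotein genes, 7 could be tested, with 3 higher and 4 lower in degron (++). SAA1, an acute-phase apolipoprotein of HDL, was at 8.65 to 18.5 FPKM in degron (++) and 0.511 to 2.86 FPKM in degron (-) libraries (log2 difference 2.72). APOO, a mitochondrial protein of the cristae in spite of its name, was lower in degron (++) with -0.70. APOA1, APOA2, APOB and APOC3, the main proteins of plasma lipoproteins, stayed under 0.5 FPKM in all libraries.

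The LDL receptor family and sorting receptors had 11 tested genes, 4 of them higher and 7 lower in degron (++). LRP3 was listed at 0 in all degron (++) libraries and was at 11.6 to 14.9 FPKM in degron (-). SORL1, a sorting receptor that binds APOE, and the WNT coreceptor LRP5 were lower in degron (++) with -1.27 and -0.50. Of 6 tested partners of the receptors, 3 were higher and 2 lower. SNX17, which recycles LRP1, was lower with -0.79.

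Ligands of LRP1 did not share a direction, with 5 of 9 tested higher and 3 lower in degron (++). The urokinase receptor PLAUR, the matrix protein thrombospondin 1 (THBS1) and the chaperone HSP90AA1 were higher with 2.08, 1.91 and 0.64. Of 12 tested genes of lipid efflux, uptake and remodelling, 3 were higher and 7 lower. The lipase inhibitor ANGPTL4 was at 0.961 to 2.80 FPKM in degron (++) and 77.0 to 98.8 FPKM in degron (-) libraries, a log2 difference of -5.34, and the lipase maturation factor LMF1 had -2.92. The lysosomal genes NPC2 and LIPA had 0.67 and -0.20. ABCA1, the transporter that loads lipid onto APOE and APOA1, did not exceed 0.275 FPKM in any library.

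Of 9 tested transcription factors, 7 were higher and 2 lower in degron (++) at 0 Gy (48 h), beside 77.7% of all tested genes called. At both 4 Gy conditions 4 were higher, 2 were lower and 3 did not pass. SREBF1 and SREBF2, the regulators of fatty acid and cholesterol synthesis, were higher with 1.75 and 1.34. The LXR genes NR1H2 and NR1H3 were at 22.5 to 29.9 FPKM and 3.95 to 7.26 FPKM over all 12 libraries. As the APOL genes are known to respond to interferon, a list of 14 interferon response genes was set beside them. Of 12 tested, 9 were higher and 3 lower in degron (++) at 0 Gy (48 h), with a median log2 difference of 0.84 beside -0.023 for all tested genes. At both 4 Gy conditions 7 were higher, 3 were lower and 2 did not pass, with medians of 0.57 (30 h) and 0.43 (48 h). OAS1, GBP1 and ISG15 were higher with 2.21, 1.98 and 0.82. The 3 lower genes, opposite to the APOL genes, included IFIT1 with -1.23 and IFI6 with -0.42.

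**Figure D4:**
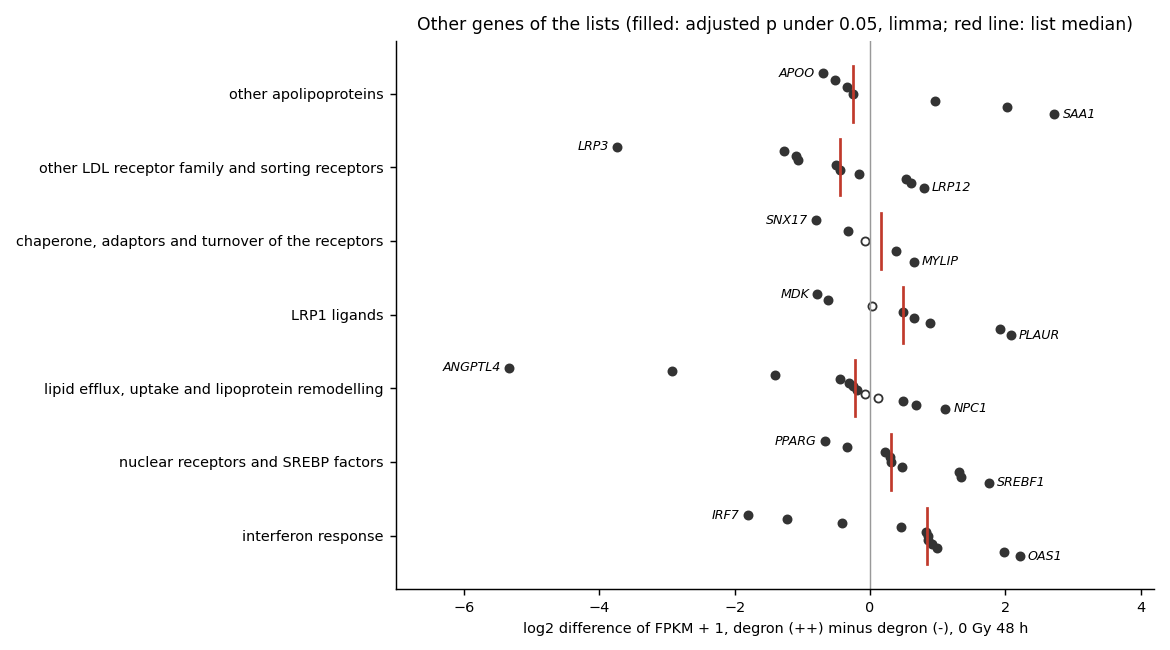
Log2 difference of FPKM + 1 at 0 Gy (48 h) (x axis, degron (++) minus degron (-)) for tested genes of 7 lists (y axis), each point 1 gene, filled where the limma adjusted p is under 0.05, with 2 genes named in each list and a red line at the median of all tested genes of the list, a few of which are not drawn. ANGPTL4 (-5.34) and LRP3 (-3.74) lie far to the degron (-) side and SAA1 (2.72) far to the degron (++) side, and the interferon list has a median of 0.84.

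With 4 Gy at 48 h, 3 of 54 pathway genes rose in degron (++) cells and 9 rose in degron (-) cells, beside 1.82% and 4.73% of all tested genes, and 0 fell in either. In degron (++) they included THBS1 (0.36) and LIPA (0.27, limma adjusted p of at most 0.0237 for each), whose calls were lost whenever 1 of the 4 libraries was left out. In degron (-) they included SAA1 (1.10), THBS1 (0.62), PLAUR (0.54) and NPC1 (0.29, limma adjusted p of at most 0.0214 for each). THBS1 passed there under 13 of 13 alternatives, PLAUR and NPC1 under 12 and SAA1 under 9. Of 12 tested interferon response genes, 6 rose there and 6 did not pass. IFIT2 rose by 0.96, IFI6 by 0.70, IFIT3 by 0.62, IFIT1 by 0.52, IRF1 by 0.45 and ISG15 by 0.27 (limma adjusted p of at most 0.0296 for each), in the same libraries in which APOL1 and APOL2 rose. The calls of IFI6, IFIT1, IRF1 and ISG15 were lost in a fit on only the libraries compared. That of ISG15 was also lost under eBayes without trend. In degron (++) cells, where neither APOL gene passed, IFIT2 rose by 0.58 (limma adjusted p = 0.0140), a call that passed under 9 of 13 alternatives. The part of interferon signals in the changes of the APOL genes was not tested.

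From 30 h to 48 h, 11 of 54 pathway genes rose in degron (-) cells and 4 rose and 1 fell in degron (++) cells, beside 7.18% and 1.21% of all tested genes. In degron (-) APOL3 rose by 0.43 (limma adjusted p = 0.0116), beside SREBF1 with 0.58 and THBS1 with 0.51 (limma adjusted p of at most 0.0406 for each). Of these 3 calls, THBS1 passed under 13 of 13 alternatives, APOL3 under 9 and SREBF1 under 6. Of 12 tested interferon response genes 8 did not pass, and OAS1, IFIT2, IFIT3 and ISG15 rose by 0.75, 0.53, 0.48 and 0.47 (limma adjusted p of at most 0.0057 for each). In degron (++) SREBF1, LRP10 and NPC1 rose by 0.85, 0.26 and 0.19 and ANGPTL4 fell by 0.66 (limma adjusted p of at most 0.0414 for each). Here ANGPTL4 passed under 12 of 13 alternatives, but LRP10 under 6, SREBF1 under 5 and NPC1 under 4. The time interaction passed for 5 pathway genes, beside 3.23% of all tested genes, with a lower value in degron (++) for THBS1 (-0.67), APOL3 (-0.55), ANGPTL4 (-0.49), PLAUR (-0.39) and HSP90AA1 (-0.33, limma adjusted p of at most 0.0437 for each). Of these, THBS1 passed under 17 of 17 alternatives, ANGPTL4 under 11, APOL3 under 7, PLAUR under 4 and HSP90AA1 under 2.

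Markers of cells that are known to make APOE were examined because the 6 degron (-) libraries were so far above the others. Of 10 macrophage and leukocyte markers, 8 were below 1 FPKM in every library, and AIF1, C1QA, C1QB and C1QC were listed at 0 in all 12. The exceptions were CD14, at 1.45 to 1.92 FPKM in degron (++) and 0.187 to 1.02 FPKM in degron (-), and CD68, a lysosomal glycoprotein, at 2.91 to 4.62 FPKM in degron (++) and 124 to 165 FPKM in degron (-). The summed level of the list was 4.52 to 6.61 FPKM in degron (++) and 125 to 165 FPKM in degron (-). Hepatocyte markers were near 0 apart from SERPINA1, with ALB at no more than 1.02 FPKM and the list summing to 3.73 to 5.56 FPKM in degron (++) and 1.44 to 2.61 FPKM in degron (-). Of 7 fibroblast and stellate markers, COL1A2 and DCN were listed at 0 in all 12 libraries, COL1A1 was at 0.531 to 0.826 FPKM in degron (++) and 36.5 to 52.3 FPKM in degron (-), and LUM was at 13.8 to 24.7 and 0.290 to 1.61 FPKM. The part of these markers, or of cells that carry them, in the APOE result was not tested.

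Over the 12 libraries 1116 genes had a Pearson's r of at least 0.99 with APOE, so a pattern like that of APOE was common. Such genes were led by SUPT5H, FBXL16, OSTM1, CD68 and MYL9. The libraries fall into separate clusters by population, so the r over all 12 is not given for each of these leading genes. They had mean levels in degron (++) and degron (-) of 63.3 and 522 FPKM, 1.09 and 10.9 FPKM, 2.90 and 35.5 FPKM, 3.65 and 151 FPKM, and 0.264 and 58.2 FPKM. When the population means were removed, the genes that varied most like APOE on the log2 scale were SUPT5H, ERCC1, SOX9, COQ10B and FBXL16. Their Pearson's r was 0.914, 0.905, 0.901, 0.896 and 0.889 over 12 libraries. They were picked as the highest of all tested genes, and how high such values can be by chance was not tested. APOC1 had an r of -0.26 by this measure and LRP8 of -0.69. These are descriptions across libraries that share their dose and time groups, and in degron (++) libraries the deviations of APOE and APOC1 rest on few fragments.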

How the data were processed

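RNA was extracted with miRNeasy Micro and libraries were made with the TruSeq stranded mRNA kit, per the labels. The values deposited by the authors are FPKM, listed by gene symbol. The submitters' processing notes name TopHat2 2.1.1, Bowtie2 2.2.8, SAMtools 0.1.18, Cuffdiff 2.2.1 and hg19, and the annotation is not given in the sources used here. Counts are not part of these files, so depth is unknown. Reads shared by near-identical APOL copies, or by APOC1 and APOC1P1, make those values uncertain.

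Here log2(FPKM + 1) was fitted with limma 3.58.1 (lmFit, eBayes with trend) in R 4.3.3 with 6 group means over 12 libraries, on genes that reached FPKM 1 in 2 or more libraries, and p-values were adjusted by Benjamini-Hochberg over all 12946 (threshold 0.05). The fits were tested on simulated data. Tables and figures were made with Python 3.11.15, numpy 2.4.6, pandas 2.3.3 and matplotlib 3.10.9. Promoter windows came from RefSeq.

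The 9 genes and the lists were chosen with earlier results of these data known. Named besides them were, per list, the 2 tested genes highest in mean level and the 2 with the largest difference at 0 Gy and 48 h, list genes past the threshold with dose or time (of these, a part is given), all neighbours, and the 5 genes most like APOE by each measure. Some genes that this rule selects are not reported here. ABCA1, the LXR genes, RELN and plasma apolipoproteins were named after their values were seen. Alternatives were a filter at FPKM 5 or none, a pseudocount of 0.1, rescaling to a sum of 1000000 (TPM) with or without MIR622, quantile normalization, the replicate block, eBayes without trend, leaving out each library and fits on the libraries compared.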

Additional observations from a re-analysis of the deposited data

Results flagged for a closer look

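The effect of time after 4 Gy on APOL6 differed between the populations by the interaction test, with -0.42 on the log2 scale for degron (++) minus degron (-) (limma adjusted p = 0.0394). In 3 further cases both libraries of each population moved without overlap and in opposite directions, while the interaction did not pass: APOL2 with time (-0.19, limma adjusted p = 0.157), and APOL6 (-0.27, limma adjusted p = 0.240) and LRP1 (-0.30, limma adjusted p = 0.262) with dose at 48 h. For LRP1 the values were 0.50 and 0.448 FPKM at 0 Gy against 0.295 and 0.367 FPKM at 4 Gy in degron (++), and 1.21 and 1.23 against 1.46 and 1.47 FPKM in degron (-). The 3 cases were picked from the 9 genes over dose and time. How many of all tested genes moved in this way was not counted. With 2 libraries a group, such a separation can arise by chance, so no difference is read from these cases.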

How the results depend on the processing

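The direction of the difference between populations held for each of the 9 genes under all alternatives, except LRP8 at 4 Gy (48 h), which turned to -0.019 under TPM. Of 344 such values, 81 moved by more than the spread between replicates. Only the pseudocount of 0.1, quantile normalization and the rescalings could move a value that far. The other fits leave the difference itself unchanged, and leaving out a library cannot shift it beyond this spread. The 344 values thus include many that could not move. Among the moved values were LRP8 at 4 Gy (30 h) from 0.31 to 0.044 and APOL2 at 4 Gy (48 h) from 0.51 to 0.25, both under TPM. LRP1 at 4 Gy (48 h) moved from -0.89 to -1.87 with a pseudocount of 0.1. LRP1 and VLDLR could not be tested with the filter at FPKM 5. With dose in degron (++), the 2 members past the threshold became 1 with a pseudocount of 0.1 and 0 with no filter, quantile normalization, TPM, TPM without MIR622, eBayes without trend, the replicate block and the fit on the libraries compared, and 0 to 0 when a library was left out. With dose in degron (-), the 2 became 0 in the fit on the libraries compared and 0 to 2 when a library was left out. With time, APOL6 passed in degron (++) with the filter at FPKM 5 (1 member in place of 0), and the 1 in degron (-) became 0 to 1 when a library was left out. In the dose interaction APOL1 passed under TPM without MIR622 (1 in place of 0, -0.67, limma adjusted p = 0.0415). In the time interaction the 1 member became 0 with no filter, TPM, the replicate block and the fit on the libraries compared, and 0 to 0 when a library was left out, while under TPM without MIR622 it was APOL1 in place of APOL6. The cause was not tested.

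Replicate numbers were shared in the labels, and the deviations of same-numbered libraries correlated at -0.038 to 0.12, with 2 of 15 pairs of groups over 0.1. With 2 libraries a group, these values cannot settle whether same-numbered libraries shared a culture or a batch. The replicate block moved the calls over all genes from 236 to 125 with dose in degron (++), from 156 to 88 with time in degron (++) and from 10 to 2 in the dose interaction. Over the other alternatives these counts ranged from 1 to 248, from 15 to 162 and from 0 to 35, and from 48 to 654 and 286 to 965 with dose and time in degron (-) and from 67 to 475 in the time interaction. Of 1483 values of named list genes under alternatives, 1222 kept direction and call, 251 lost the call, 2 gained it and 8 reversed. These were, at 0 Gy (48 h), TOMM40 under TPM (-0.11) and TPM without MIR622 (-0.020), APP (0.021 in the fit used) under quantile normalization (-0.041), TPM (-0.19) and TPM without MIR622 (-0.098), and BCL3 (-0.011 in the fit used) under quantile normalization (0.027) and when a library was left out (-0.099 to 0.076). FPKM without counts limit what can be said of APOE and APOC1 in degron (++), where 0 to 9 steps make up a value.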
